A study of Mus musculus with 9 samples.

Results

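Ligands and receptors of the transforming growth factor beta (TGF-beta) and bone morphogenetic protein (BMP) families were followed in cultures from the embryonic mouse cortex. The 10 genes were picked by name, with earlier results of these data known, by a rule that sets no threshold on their values. They are the ligand genes Tgfb1, Tgfb2, Tgfb3, Bmp7 and Gdf10 and the receptor genes Tgfbr1, Tgfbr2, Tgfbr3, Bmpr1a and Bmpr2. Each had exactly 1 probe set with a single gene symbol, among 22180 genes with such a probe set. Of the 10, 9 were above the array median on at least 3 arrays and entered the test with 13012 genes in all. The gene that did not was Tgfbr3.

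RNA was measured on 9 gene arrays, 3 for each of 3 cultures, all from wild-type CD1 mice, and the labels call the 3 arrays of a group biological replicates. Neurons came from the cortex on embryonic day 16 and were cultured for 5 days in total, although another label gives 4 days. Precursors came from the cortex on embryonic day 13 and were cultured for 1 day. In the co-culture, precursors of embryonic day 13 were put onto neurons of embryonic day 16 that had been in culture for 4 days, and both stayed together for 1 day. The co-culture RNA holds the RNA of both kinds of cells, which were not separated before extraction. Cell type, embryonic day and days in culture changed together between the separate cultures and cannot be told apart. The sources used here do not say whether embryos were pooled or what a replicate number stands for, so p-values measure the spread between these arrays. The series concerns growth factor communication between cells of the developing cortex.

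TGF-beta and BMP ligands are secreted dimers that bring together type I and type II receptor kinases on the receiving cell. The type II receptor phosphorylates the type I receptor, which phosphorylates SMAD transcription factors: Smad2 and Smad3 downstream of TGF-beta, and Smad1, Smad5 and Smad9 downstream of BMPs, each joined by Smad4. In the developing cortex, BMPs are known for patterning the dorsal midline and for effects on neuron and astrocyte production, and TGF-beta ligands for effects on neuronal differentiation and axon formation.

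The labelled cell types were checked against marker genes. Neurons exceeded precursors in 8 of 9 neuron markers, with 0 lower, and all 8 precursor markers were lower in neurons (limma, adjusted p under 0.05). The exception among neuron markers was Tubb3, at a mean log2 level of 11.95 in neurons and 11.96 in precursors. Array medians lay between 6.75 and 6.79 on the log2 scale. All pairs of arrays correlated at 0.964 or above over all probe sets, and the number of arrays limits the precision. Co-culture replicate 2 stood apart in connective tissue genes: the summed linear level of 10 meningeal fibroblast markers was 1483 there, against 1084 and 958 in co-culture replicates 1 and 3 and 905 to 1067 in the separate cultures. Dcn, which encodes the proteoglycan decorin and was singled out after its values were seen, was at log2 levels of 6.97, 8.25 and 6.42 in co-culture replicates 1 to 3. The same array was highest in endothelial markers, with a summed linear level of 1184 for 8 markers against 967 and 937 in the other co-cultures and 965 to 1020 in precursors. The co-culture differences of Bmp7, Tgfb1 and Tgfbr3, which were highest there by the widest margins, are given with and without it.

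The sequences before the transcription starts of 5 of the 7 genes that differed between neurons and precursors are shown so that the promoter side of genes that moved in the same direction can be compared. They are the 250 bases before the start in RefSeq's mouse annotation (GRCm38.p6), written 5′ to 3′ on the gene's strand. Of the 10 genes, 7 had an entry. The windows are chr7:25686752-25687001, plus strand, for Tgfb1, chr4:47352972-47353221, plus strand, for Tgfbr1, and chr14:34502547-34502796, minus strand, for Bmpr1a, all lower in neurons. Those of the genes higher in neurons are chr14:33923337-33923586, plus strand, for Gdf10, and chr1:59764029-59764278, plus strand, for Bmpr2. For Tgfbr1 the first of 2 listed starts is shown. Capitals mark the GC box GGGCGG or its reverse complement CCGCCC, a motif bound by SP-type factors.
Tgfb1: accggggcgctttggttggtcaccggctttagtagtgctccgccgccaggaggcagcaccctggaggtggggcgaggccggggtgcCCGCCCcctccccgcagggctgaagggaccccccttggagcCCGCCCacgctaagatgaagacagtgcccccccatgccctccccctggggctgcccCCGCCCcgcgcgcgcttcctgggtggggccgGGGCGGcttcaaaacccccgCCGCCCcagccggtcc
Tgfbr1: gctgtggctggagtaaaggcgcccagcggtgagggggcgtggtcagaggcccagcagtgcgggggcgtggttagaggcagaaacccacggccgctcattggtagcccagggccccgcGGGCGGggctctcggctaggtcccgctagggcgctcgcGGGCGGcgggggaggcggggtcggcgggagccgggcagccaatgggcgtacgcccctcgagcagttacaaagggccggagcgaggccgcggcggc
Bmpr1a: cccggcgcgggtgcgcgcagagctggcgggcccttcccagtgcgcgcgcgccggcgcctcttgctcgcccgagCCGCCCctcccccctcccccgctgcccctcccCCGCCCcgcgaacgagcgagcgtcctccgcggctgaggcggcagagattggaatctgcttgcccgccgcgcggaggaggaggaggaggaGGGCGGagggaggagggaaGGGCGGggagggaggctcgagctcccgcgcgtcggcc
Gdf10: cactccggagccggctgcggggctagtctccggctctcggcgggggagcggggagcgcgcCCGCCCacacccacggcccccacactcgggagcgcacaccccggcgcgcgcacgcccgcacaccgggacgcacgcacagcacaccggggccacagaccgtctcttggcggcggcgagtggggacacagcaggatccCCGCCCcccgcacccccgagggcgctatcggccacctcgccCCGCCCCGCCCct
Bmpr2: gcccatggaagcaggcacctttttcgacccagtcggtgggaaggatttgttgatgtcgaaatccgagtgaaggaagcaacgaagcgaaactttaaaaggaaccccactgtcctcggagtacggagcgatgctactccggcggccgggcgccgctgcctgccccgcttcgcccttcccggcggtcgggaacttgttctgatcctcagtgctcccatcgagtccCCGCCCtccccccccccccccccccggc

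All 5 windows held a GC box, from 1 match in Bmpr2 to 5 in Tgfb1, and so did 32.7% of 32851 mouse windows of this length. The GC box thus did not separate genes lower in neurons from genes higher in neurons. The windows were rich in G and C, at 64.0% for Bmpr2 and 74.8% to 78.8% for the others, against a median of 52.4% over all windows. The Tgfb2 and Tgfbr2 windows, of the genes that did not differ between cultures past the threshold, had 53.6% and 58.4% G and C and 0 GC boxes. The SMAD-type element GGCGCC, which can overlap a GC box, was present in Tgfbr1, Bmpr1a and Bmpr2 and in 9.59% of all windows. The shorter SMAD element GTCTG, searched on both strands like the others, was present in Gdf10, Tgfb2, Tgfbr2 and the second start of Tgfbr1 and in 42.2% of all windows. CCAAT was found at Tgfb2, the first start of Tgfbr1, Tgfbr2 and Bmpr1a (33.8% of all windows) and TATAAA at Tgfb2 alone (12.4%). These matches describe letters in the windows only.

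Neurons were first compared with precursors. Gdf10 was about 2-fold higher in neurons and Tgfbr1 about 2-fold lower. Bmp7, Bmpr1a and Tgfb1 were lower in neurons by smaller amounts, and Tgfb3 and Bmpr2 were modestly higher. Tgfb2 and Tgfbr2 did not pass the test. In all, 3 of the 9 tested genes were higher and 4 lower in neurons (limma, Benjamini-Hochberg adjusted p under 0.05). Over all 13012 tested genes 28% were higher and 35.2% lower, so 63.1% passed in either direction, and 7 of 9 (77.8%) is near that background. In bulk RNA, fewer cells of a type and less RNA per cell cannot be told apart.

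**Figure D1:**
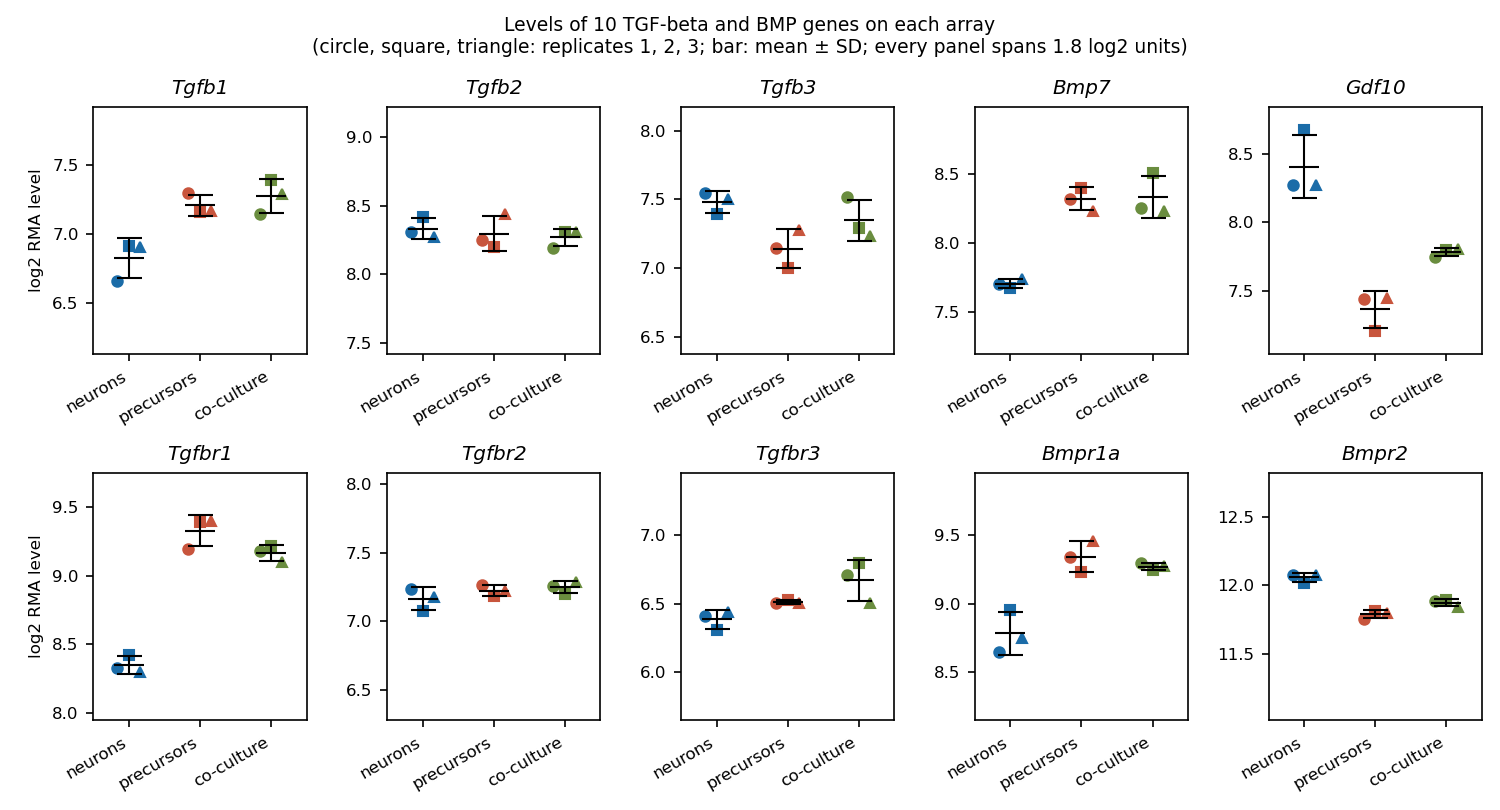
Log2 RMA level of each of the 10 genes (y axis, every panel spanning the same number of log2 units) on the 9 arrays, by culture (x axis); circles, squares and triangles are replicates 1, 2 and 3, and bars are the mean ± SD of 3 arrays. Gdf10 falls from neurons over the co-culture to precursors, Tgfbr1, Bmpr1a, Bmp7 and Tgfb1 are lowest in neurons, and Tgfb2 and Tgfbr2 overlap between all cultures.

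Among the ligands, Gdf10 moved furthest. It encodes growth differentiation factor 10, also called BMP3B, a relative of BMP3. Its log2 level was 8.27, 8.67 and 8.28 in neuron replicates 1 to 3, and 7.44, 7.21 and 7.45 in the precursors. The groups did not overlap, as for 66.4% of all tested genes, and neuron replicate 2 was the highest array and precursor replicate 2 the lowest. The difference was 1.04 on the log2 scale (SE 0.108), or 2.06-fold in favour of neurons (limma, adjusted p = 1.71e-05), larger in size than that of 90.4% of tested genes.

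Bmp7 encodes a BMP that the meninges and the dorsal midline are known to make. Its level was 7.70, 7.67 and 7.74 in neurons and 8.32, 8.40 and 8.24 in precursors. All neuron arrays lay below all precursor arrays, and the SD of the neuron arrays was 0.034. Bmp7 was 1.53-fold lower in neurons (log2 difference -0.62, SE 0.0759, adjusted p = 5.71e-05, limma). Of the 10 meningeal fibroblast markers, 5 were above the filter and 1 (Cxcl12) was higher and 0 lower in neurons. The summed linear level of the 10 was 993 to 1067 in neurons and 905 to 1013 in precursors, ranges that overlap. Their part in the Bmp7 difference was not tested.

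The 3 TGF-beta isoforms, encoded by separate genes and secreted in latent form, did not move together. Tgfb1 was at 6.66, 6.91 and 6.91 in neurons and 7.30, 7.16 and 7.17 in precursors, without overlap and with neuron replicate 1 lowest. It was 1.31-fold lower in neurons (log2 difference -0.38, SE 0.0853, adjusted p = 0.00288, limma). Tgfb3 went the other way, at 7.55, 7.39 and 7.50 in neurons and 7.15, 7.001 and 7.28 in precursors. The groups did not overlap, though neuron replicate 2 and precursor replicate 3 were close. Neurons had 1.26-fold more Tgfb3 (log2 difference 0.34, SE 0.0901, adjusted p = 0.00807, limma).

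Tgfb2 lay between 8.27 and 8.42 in neurons and between 8.20 and 8.44 in precursors, and the ranges overlapped. The log2 difference was 0.037, with a 95% interval of -0.124 to 0.197. Both Tgfb1 and Tgfb3 lay near the array medians, where array folds can be understated. Microglia, the resident macrophages of the brain, are a known source of Tgfb1. Of 14 microglia and macrophage markers, 8 were above the filter; 3 of these (Fcer1g, Tyrobp and Cd68) were lower in neurons and 1 (Aif1) higher. The summed linear level of the 14 was 1701 to 1854 in neurons and 1981 to 2171 in precursors, and 6 (Csf1r, C1qc, Ptprc, Itgam, P2ry12 and Tmem119) were below the filter. Their part in the Tgfb1 difference was not tested.

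Among the receptors, Tgfbr1, the type I receptor for TGF-beta, differed most. Its level was 8.33, 8.42 and 8.30 in neurons and 9.20, 9.39 and 9.39 in precursors. All precursor arrays lay above all neuron arrays, by more than the spread within either group. Tgfbr1 was 1.97-fold lower in neurons (log2 difference -0.98, SE 0.0652, adjusted p = 7.48e-07, limma), larger in size than the difference of 89.3% of tested genes.

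Bmpr1a, a type I receptor for BMPs also called ALK3, was at 8.65, 8.95 and 8.75 in neurons and 9.34, 9.23 and 9.46 in precursors. The groups did not overlap. The gene was 1.47-fold lower in neurons (log2 difference -0.56, SE 0.0818, adjusted p = 1.96e-04, limma). The type II receptor that partners it, Bmpr2, moved in the opposite direction. Bmpr2 was at 12.08, 12.02 and 12.08 in neurons and 11.76, 11.81 and 11.80 in precursors, the tightest of the differences. Neurons had 1.20-fold more of it (log2 difference 0.27, SE 0.0409, adjusted p = 2.56e-04, limma), and 50.1% of tested genes differed by less.

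The type II TGF-beta receptor Tgfbr2 lay between 7.07 and 7.24 in neurons and between 7.18 and 7.26 in precursors. The ranges overlapped, and the log2 difference was -0.058 with a 95% interval of -0.176 to 0.0604. The interval for its partner Tgfbr1 was -1.12 to -0.83. Tgfbr2 lay near the array medians, where array folds can be understated, and Tgfbr1 lay further above them. Tgfbr3, a coreceptor also called betaglycan that presents TGF-beta2 to the signalling receptors, lay at 6.41, 6.31 and 6.44 in neurons and 6.50, 6.52 and 6.50 in precursors. It was untested for its low level. Without the filter its difference of -0.13 did not pass (limma, adjusted p = 0.236). All 4 endothelial markers above the filter, of 8 listed, were lower in neurons, with a summed linear level of 651 to 698 in neurons and 965 to 1020 in precursors. Of all tested genes 35.2% were lower in neurons. Cdh5 differed most (log2 difference -1.21), and Pecam1, Kdr and Flt1, near the array medians, differed by -0.34, -0.30 and -0.51. Endothelial cells use TGF-beta and BMP receptors, and the part of these cells in the receptor differences was not tested.

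**Figure D2:**
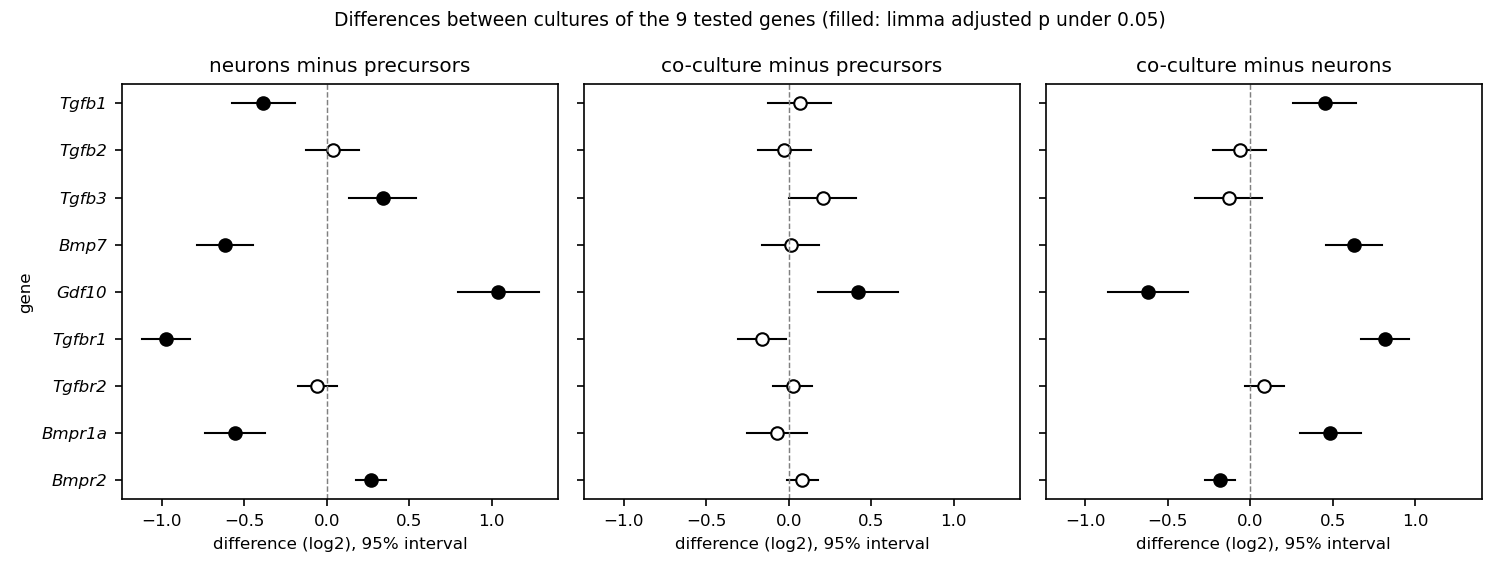
Log2 difference (x axis) of each of the 9 tested genes (y axis) in 3 comparisons of cultures, with 95% intervals from limma; filled points passed at an adjusted p under 0.05 and open points did not. The pattern between co-culture and neurons mirrors that between neurons and precursors, with which it shares the neuron arrays, and in co-culture against precursors Gdf10 alone is filled.

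The co-culture was next compared with precursors alone, from which it differs by the added neurons. Gdf10 was 1.34-fold higher in the co-culture, and the other 8 tested genes did not pass. Gdf10 was at 7.75, 7.80 and 7.81 in the co-culture and at 7.21 to 7.45 in precursors. The groups did not overlap, and the co-culture lay below all neuron arrays. The log2 difference was 0.42 (SE 0.108, adjusted p = 0.0429, limma). Precursor and co-culture arrays of the same number deviated together, and with the number as a replicate block the adjusted p was 0.0752. It also missed the threshold without any 1 precursor array (0.0732, 0.156 and 0.0721 without replicates 1 to 3) and without any 1 co-culture array (0.111, 0.138 and 0.121), at log2 differences of 0.34 to 0.46. The call was thus lost in each of these alternative fits, while the direction stayed the same. Leaving out an array also lowers the power, which these fits cannot separate from an effect of that array.

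In all, 1 of 9 genes (11.1%) passed here, where 8.22% of all tested genes were higher and 0.2% lower (8.42% in all), so the count is near the background. Of all tested genes 1069 were higher and 26 lower, and 692 and 98 with each array centred on the median of the tested genes, a scaling added after seeing the data. With that scaling Gdf10 did not pass (0.36, adjusted p = 0.0659).

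For a further 2 genes the 95% interval excluded 0 and the adjusted p did not pass. Tgfb3 was at 7.52, 7.29 and 7.23 in the co-culture, with replicate 1 above all precursor arrays and replicate 3 within their range. Its log2 difference from precursors was 0.21 (SE 0.0901, adjusted p = 0.269, limma). Tgfbr1 was at 9.18, 9.22 and 9.10, on the low side of the precursor arrays (log2 difference -0.16, SE 0.0652, adjusted p = 0.219, limma).

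The remaining genes lay near their precursor levels. Bmpr2 was at 11.88, 11.89 and 11.84, above all 3 precursor arrays, with a difference of 0.083 (95% interval -0.0086 to 0.175, adjusted p = 0.344, limma). Groups that do not overlap, as for Bmpr2 and Gdf10, occurred for 24.8% of all tested genes in this comparison. Bmpr1a was at 9.29, 9.24 and 9.27 and differed by -0.072 (95% interval -0.256 to 0.112). Tgfb2, between 8.19 and 8.30 in the co-culture, differed by -0.027 (-0.188 to 0.133), and Tgfbr2, between 7.20 and 7.28, by 0.025 (-0.094 to 0.143).

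Bmp7, Tgfb1 and Tgfbr3 were each highest in co-culture replicate 2, the array that stood apart in connective tissue and endothelial markers. Tgfbr1 and Bmpr2 were also highest there, by smaller margins, and Tgfb2 had its highest co-culture value in replicates 2 and 3 alike. Over 18 alternative settings, which include leaving that array out, Tgfbr1 differed from precursors by -0.23 to -0.13. Bmpr2 differed by 0.021 to 0.098. Bmp7 was at 8.26, 8.51 and 8.24 in the co-culture, a difference from precursors of 0.012 (95% interval -0.159 to 0.182) with that array and of -0.076 without it. Tgfb1 was at 7.15, 7.39 and 7.29, a difference of 0.067 (-0.125 to 0.259) with it and 0.0089 without it. Tgfbr3 was at 6.71, 6.79 and 6.50, a difference of 0.16 with it and 0.096 without it, both untested. The part of meningeal or endothelial cells in these levels was not tested.

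The third comparison set the co-culture against neurons alone, where the precursors' own RNA is part of the sample. Of the 9 tested genes, Tgfbr1, Bmp7, Bmpr1a and Tgfb1 were higher in the co-culture and Gdf10 and Bmpr2 lower, that is 4 higher and 2 lower (limma, adjusted p under 0.05). Over all tested genes 35.7% were higher and 24.9% lower (60.6% in all, against 66.7% of the 9 genes). Of all tested genes 4643 were higher and 3236 lower, or 3478 and 4925 with each array centred on the median of the tested genes, a scaling that moved the median log2 difference of all tested genes from 0.032 to -0.080. Under it 4 of the 9 were higher and 4 lower, because Tgfb2 (-0.18, adjusted p = 0.0389) and Tgfb3 (-0.25, adjusted p = 0.0368) then passed.

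Tgfbr1 was 1.76-fold higher in the co-culture than in neurons (log2 difference 0.81, SE 0.0652, adjusted p = 4.00e-06, limma), with every co-culture array above every neuron array. Groups did not overlap for 65.4% of all tested genes in this comparison. Bmp7 was 1.55-fold higher (0.63, SE 0.0759, adjusted p = 6.26e-05), and 0.54 without co-culture replicate 2 (adjusted p = 9.58e-05). Bmpr1a was 1.40-fold higher (0.48, SE 0.0818, adjusted p = 5.78e-04). Tgfb1 was 1.37-fold higher (0.45, SE 0.0853, adjusted p = 0.00120), and 0.39 without co-culture replicate 2 (adjusted p = 0.00592). On the other side, Gdf10 was 1.54-fold lower (-0.62, SE 0.108, adjusted p = 7.07e-04) and Bmpr2 1.14-fold lower (-0.18, SE 0.0409, adjusted p = 0.00315).

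Tgfb3 (-0.13, 95% interval -0.336 to 0.0696), Tgfb2 (-0.064, -0.224 to 0.0968) and Tgfbr2 (0.083, -0.036 to 0.201) did not pass. Tgfbr3, untested at this filter, was 0.28 higher in the co-culture on the log2 scale, and 0.22 without co-culture replicate 2. With all arrays and no filter it passed (adjusted p = 0.0130, limma), a fit that was not run without that array. Its level there is low and co-culture replicate 3 (6.50) lay close to the highest neuron array (6.44).

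Placed in order of level, Tgfbr1 and Bmpr1a ran precursors, co-culture, neurons, and only the step to neurons passed the test. Bmp7 and Tgfb1 were lowest in neurons, and the step to neurons passed from either of the other cultures. The order of co-culture and precursors was not settled for Bmp7 (0.012, but -0.076 without co-culture replicate 2 and -0.050 with arrays centred on the tested genes' median) or for Tgfb1 (0.067, and 0.0089 without that array). Gdf10 ran neurons, co-culture, precursors. Its step from neurons to co-culture passed, and its step from co-culture to precursors passed without the replicate block (adjusted p = 0.0429, limma) and not with it (0.0752), and in 9 of 18 alternative settings. Bmpr2 and Tgfb3 followed the same order as Gdf10; for Bmpr2 the step from neurons to co-culture passed, and for Tgfb3 neither neighbouring step did. The orders of Tgfb2, Tgfbr2 and Tgfbr3 rest on no step that passed at the filter used.

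Co-culture levels were also set against both separate cultures at once, since a simple mixture lies between its sources. None of the 9 tested genes passed as outside both (limma, larger of the 2 one-sided p-values, adjusted p = 1 for each). The mean co-culture levels of Tgfb1, Bmp7 and Tgfbr2 were above both and that of Tgfb2 below both, by amounts that did not pass. The mean of Tgfbr3, untested at this filter, was also above both, at 6.67 against 6.51 in precursors and 6.38 in neurons. Of all tested genes 0 passed as above both and 0 as below (0%), and at an unadjusted p under 0.05 there were 141 and 127.

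A mixture of RNA from the separate cultures was then predicted on the linear scale. Neurons contributed an apparent 16.8% ± 1.14 (SD, n = 3) of the RNA in the co-culture. This is the average of a share from 105 neuron genes (22.6% ± 1.20) and one from 109 precursor genes (10.97% ± 2.24), all with a difference of 4-fold or more between the separate cultures. At this share Gdf10 was predicted at 7.61 and measured at 7.79, a departure of 0.18 ± 0.031 (SD, n = 3), and all 3 arrays lay above the prediction, by 0.14 to 0.20. The SD of each departure is that of the co-culture arrays around 1 fixed prediction. It leaves out the spread of the neuron and precursor arrays behind the prediction (SD 0.23 and 0.14 for Gdf10), so it understates the uncertainty. With the share from neuron genes the Gdf10 departure was 0.10 and with that from precursor genes 0.25. Its size depended on the share and its sign did not. Without precursor replicate 2 it was 0.11. The share from the 105 neuron genes exceeded the 16.8% used, so the typical gene among them also lay above its prediction. Departures were not computed over all genes, so the Gdf10 departure has no background beside it.

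Bmpr1a (0.0046 ± 0.024), Bmpr2 (0.035 ± 0.026) and Tgfbr1 (-0.040 ± 0.061) lay close to their predictions. The sign depended on the share for Tgfbr1 (0.0057 with that from neuron genes and -0.084 with that from precursor genes) and for Bmpr1a (0.033 and -0.023), and Bmpr2 stayed above at 0.018 and 0.051. Tgfb1 (0.12 ± 0.12), Tgfb3 (0.14 ± 0.15), Bmp7 (0.097 ± 0.15) and Tgfbr3 (0.18 ± 0.15) lay above on average, with array values that spread as widely as the departure itself. For Bmp7 the departure was 0.0072 without co-culture replicate 2, for Tgfb1 0.063 and for Tgfbr3 0.12. Tgfb2 (-0.037 ± 0.064) and Tgfbr2 (0.034 ± 0.044) had little difference between the sources to mix. The departures are descriptions without a test, because the share was taken from the same arrays.

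**Figure D3:**
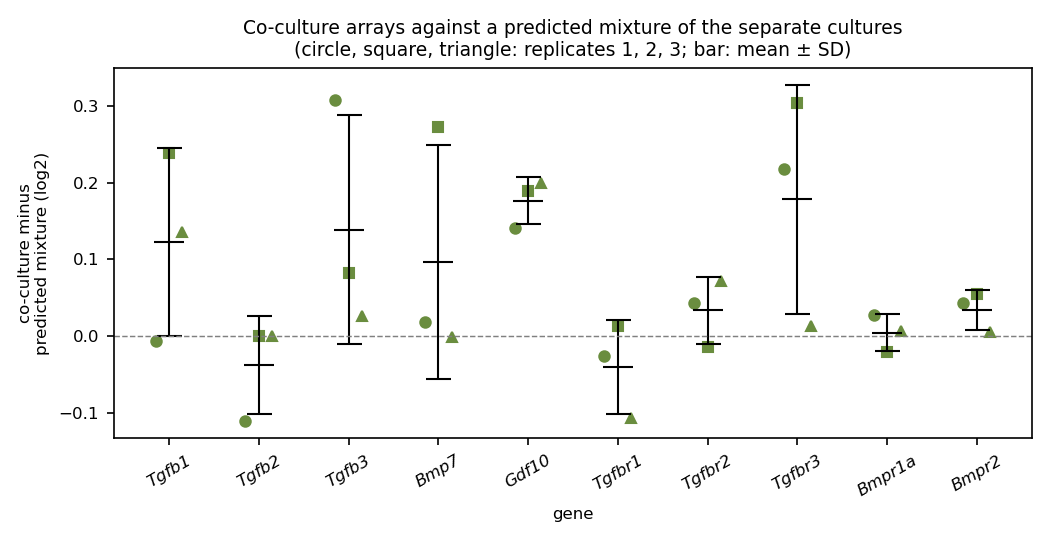
Co-culture log2 level minus the level predicted for a mixture at the apparent neuron share (y axis) for each of the 10 genes (x axis); circles, squares and triangles are co-culture replicates 1, 2 and 3, and bars are the mean ± SD. The SD is that of the co-culture arrays alone, without the spread of the arrays behind the prediction. Gdf10 lies above the dashed line of no departure on all 3 arrays within a narrow band. Bmp7, Tgfb1, Tgfbr3, Tgfbr1 and Bmpr2 are highest in replicate 2.

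The rest of the pathway was described through 7 lists of genes grouped by role, chosen with earlier results of these data known. The list counts below stand against a high background. From precursors to neurons, 63.1% of all tested genes passed (28% upward and 35.2% downward). From neurons to the co-culture 60.6% passed (35.7% upward and 24.9% downward), and from precursors to the co-culture 8.42%. Whether any list departed from these shares was not tested. Among 22 other BMP and GDF ligands, 20 had a probe set and 7 passed the filter. Against precursors, neurons had 2 higher and 0 lower. Bmp6, a BMP ligand, was 2.02-fold higher there (a log2 value of 1.01, SE 0.119, adjusted p = 4.09e-05, limma). Bmp3, the closest relative of Gdf10, was 1.33-fold higher (0.41). Both were lower in the co-culture than in neurons, by -0.70 and -0.29, and 0 of the 7 passed between co-culture and precursors. Bmp2 and Bmp4 were below the filter and untested. The list's median difference between neurons and precursors was 0.040, against -0.020 over all tested genes.

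Of 12 other receptors and coreceptors, 8 were tested, with 5 higher and 2 lower in neurons (median 0.29). Acvr1, a type I receptor for BMPs also called ALK2, was 1.68-fold higher in neurons (0.75, SE 0.0432, adjusted p = 2.79e-07, limma), opposite to Bmpr1a. Rgmb, a BMP coreceptor, was 1.37-fold higher. The type II receptor Acvr2b, which activins and BMPs share, was 1.85-fold lower (-0.88, adjusted p = 8.16e-07, limma). In the co-culture, Acvr1 was 0.30 above precursors (adjusted p = 0.00204, limma) and -0.45 from neurons. Nrp1, a neuropilin that also binds TGF-beta1, was 0.25 above precursors (adjusted p = 0.0270), a call lost without any 1 precursor or co-culture array except precursor replicate 3 (adjusted p = 0.0661 to 0.121). Against neurons, 2 of the 8 were higher and 4 lower in the co-culture, with Acvr2b at 0.72 and Eng, an endothelial coreceptor, at 0.44 higher.

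Of 8 SMAD genes 6 were tested. Smad2, Smad3, Smad4 and Smad5 were lower in neurons and Smad7, which inhibits the pathway and is also induced by it, was higher (4 lower, 1 higher, median -0.35). Smad5, a BMP effector, was 2.07-fold lower (-1.05, SE 0.0645, adjusted p = 4.17e-07, limma) and Smad3, a TGF-beta effector, 1.75-fold lower (-0.81, SE 0.0801). Smad7 was 1.82-fold higher (0.87, SE 0.0653, adjusted p = 1.75e-06). Smad1 differed by -0.0012 and did not pass. Against neurons the co-culture had 4 higher and 1 lower, with Smad5 at 1.05, Smad3 at 0.87 and Smad7 at -0.53. Against precursors 1 of 6 passed, Smad7 at 0.34 (adjusted p = 0.00977, limma). The direction of Smad5 and Smad3 in neurons was the same as that of Tgfbr1 and Bmpr1a, and that of Smad7 the same as that of Gdf10. Other genes went the opposite way. The receptor genes Bmpr2 and Acvr1 were opposite to Smad5 and Smad3, and the ligand genes Bmp7 and Tgfb1 opposite to Smad7.

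All 12 adaptors and inhibitors inside the cell were tested, with 5 higher and 5 lower in neurons (median 0.053). Tgif1, a homeobox corepressor of SMADs, was 2.11-fold lower (-1.08, adjusted p = 3.67e-06, limma). Pmepa1, which sequesters SMADs and is a TGF-beta target, was 1.72-fold higher, and Ski, another SMAD corepressor, 1.44-fold higher. In the co-culture Pmepa1 (0.29, adjusted p = 0.0391) and Ski (0.21, adjusted p = 0.0370) were above precursors. Without any 1 co-culture array Ski missed the threshold (0.0561 to 0.160), also without precursor replicate 2 (0.131) or 3 (0.115), without neuron replicate 1 (0.0509) or 3 (0.0512) and with the replicate block (0.0594). Pmepa1 missed it without co-culture replicate 1 (0.117) or 2 (0.162) without precursor replicate 1 (0.123) or 2 (0.0890) and without neuron replicate 1 (0.0581). Against neurons 4 were higher and 4 lower, led by Tgif1 (0.93), Pmepa1 (-0.49) and Map3k7 (0.43), the kinase TAK1 of the SMAD-independent branch.

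Extracellular BMP antagonists and modulators were tested for 9 of 18 listed genes. Of these 6 were higher and 2 lower in neurons (median 0.33). Sostdc1 was 1.74-fold higher (0.80) and Crim1, which binds BMPs at the cell surface, 1.63-fold higher (0.71). Twsg1, which binds BMPs together with chordin, was 1.70-fold lower (-0.76). Noggin (Nog) was below the filter. The single gene of the list that passed between co-culture and precursors was Fst, the activin-binding protein follistatin, 2.00-fold higher in the co-culture (1.00, SE 0.107, adjusted p = 3.03e-04, limma). Against neurons 3 were higher and 5 lower, with Twsg1 at 0.73, Sostdc1 at -0.55 and Crim1 at -0.45. Fst was also higher in the co-culture than in neurons (0.40, adjusted p = 0.00858, limma). For Fst above both separate cultures, the larger one-sided p-value was 0.00207 (limma) and did not pass after adjustment.

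Of 20 genes for storage and activation of latent TGF-beta, 15 were tested, and 4 were higher and 5 lower in neurons (median 0.092). Mmp14, a membrane-bound metalloprotease, was 4.25-fold lower in neurons (-2.09, SE 0.0798, adjusted p = 1.81e-08, limma). Ltbp1, which tethers latent TGF-beta to the matrix, was 2.34-fold lower (-1.23). Thbs1, thrombospondin 1, an activator of latent TGF-beta, was 2.12-fold higher (1.09). Between co-culture and precursors 0 of the 15 passed, where 8.42% of all genes did, and 1 (Itgb8) lay at an adjusted p under 0.1 (0.22, adjusted p = 0.0859, limma). Against neurons 6 were higher and 4 lower, with Mmp14 at 1.93, Ltbp1 at 1.17 and Thbs1 at -1.09.

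Genes known to respond to SMADs were mixed in direction. Of 18 listed, 12 were tested, and 6 were higher and 3 lower in neurons (median 0.23). Hey1 was 3.21-fold lower (-1.68) and Id4 2.35-fold lower (-1.23), and both are also markers of radial precursors, Hey1 as a Notch target. Smad7 and Pmepa1 of the lists above were higher, as were Junb (0.65) and Cdkn1a (0.38). Id1 and Id3, which BMPs induce, were below the filter. Between co-culture and precursors Smad7 and Pmepa1 passed and 10 did not. Against neurons 4 were higher and 6 lower in the co-culture, with Hey1 at 1.56, Id4 at 1.10 and Tgfbi, a secreted TGF-beta target, at 1.11 with co-culture replicate 2 and 0.67 without it (adjusted p = 0.0100 and 0.00175, limma).

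**Figure D4:**
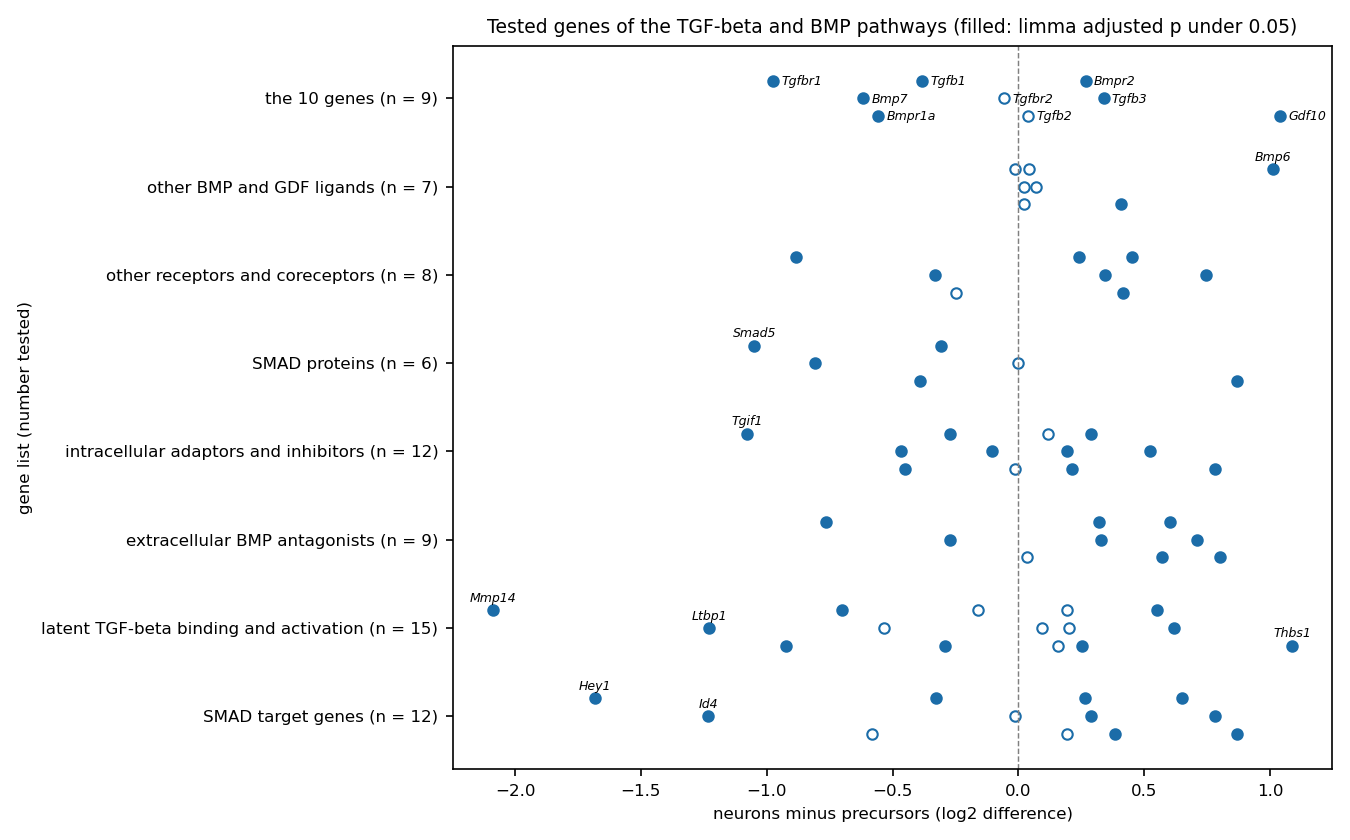
Log2 difference between neurons and precursors (x axis) of every tested gene of the 10 and of 7 pathway lists (y axis, with the number tested); filled points passed limma's test at an adjusted p under 0.05, open points did not, and genes beyond 1 in size are named. Every list but the other ligands has filled points on both sides of 0.

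For each gene that differed between neurons and precursors, the profiles over the 9 arrays closest to it were found by the root mean square difference of levels, each centred on its own mean. Bmp6 was closest to Gdf10 (0.073 on the log2 scale), followed by Fgf5, a fibroblast growth factor (0.080). Closest to Tgfbr1 were Pard3, a cell polarity gene, and Snx5, a sorting nexin (0.044 each). Arvcf and Kirrel were closest to Bmpr1a (0.039 and 0.041), and Nvl and 2610307P16Rik to Bmp7 (0.063 and 0.056). Herc1 and Alg2 were closest to Bmpr2 (0.013 and 0.021), Gkap1 and Araf to Tgfb1 (0.058 and 0.063), and Dram2 and Fig4 to Tgfb3 (0.063 and 0.064). With 9 arrays in 3 groups these distances describe mainly the group means.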

How the data were processed

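The authors deposited RMA values on the log2 scale for each probe set. The submitters' processing notes name the oligo package. RMA corrects background, equalises the arrays' distributions and summarises probes by a robust fit, which can return the same value on several arrays (Tgfb2 and Tgfbr3 had 1 value on 3 arrays). A genome build for the values is not given in these sources. Of 41345 probe sets, 23521 had 1 symbol in the platform annotation, 1814 several and 16010 none. Those with 1 symbol gave 22180 genes, each by its probe set of highest mean. Genes above the array median on at least 3 arrays were tested.

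One limma model (version 3.58.1, R 4.3.3) covered the 3 groups, with lmFit, eBayes and two-sided Benjamini-Hochberg adjustment over 13012 genes at 0.05. The members, lists and markers were chosen with earlier results of these data known. Named are the 10 genes, up to 3 passing genes per list and comparison, the 2 nearest profiles per gene, and a few other list genes, chosen once their values were known. Across genes, the deviations of precursor and co-culture arrays with 1 number correlated at 0.34, 0.30 and 0.16. The main model did not pair arrays, and the replicate block, a separate fit, paired all 3 groups by number. For neuron arrays the correlations were 0.0043, 0.13 and -0.15 against precursors, and -0.0051, 0.27 and 0.17 against the co-culture. Data were simulated with the spread of these genes and with 200 of 13012 genes changed. Of changes between neurons and precursors, 92% at 1.5-fold and 47% at 1.25-fold were recovered. In the data 8211 genes passed there, so the adjustment was stricter in the simulation and these rates may not carry over. Promoter windows came from RefSeq.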

Additional observations from a re-analysis of the deposited data

How the results depend on the processing

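The 7 calls between neurons and precursors and the 6 between co-culture and neurons kept direction and call in all 17 or 18 settings in which each gene was tested. Gdf10 between co-culture and precursors passed in 9 of 18, with adjusted p-values of 0.00436 to 0.156 (limma). The count of the 9 genes higher in the co-culture than in precursors was 1, and 0 with arrays centred on the tested genes' median, with no filter and with the replicate block. It was 0 to 1 when single arrays were left out. Over all genes the 1069 higher became 692 with that centring and 676 to 1112 when single arrays were left out. The 26 lower became 98 with that centring, 40 with no filter, 43 with the filter at the 75th percentile, 42 with the replicate block, 87 with array weights, 42 with a variance trend and 7 to 51 when single arrays were left out. Between co-culture and neurons the centring gave 4 of the 9 genes lower, not 2, and 4925 genes lower, not 3236. With the 75th percentile filter 1 gene passed as above both separate cultures, and 0 to 1 when single arrays were left out.

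Differences near 0 that failed the test changed sign. With the centring, Bmp7 (-0.050) and Tgfbr2 (-0.037) against precursors and Tgfbr2 against neurons (-0.030) turned negative. Tgfb2 between neurons and precursors was -0.00068 with array weights and -0.012 to 0.11 when single arrays were left out. Between co-culture and precursors, leaving out single arrays gave Tgfb2 from -0.076 to 0.046 and Bmp7 from -0.076 to 0.060. The cause was not tested. The fit with the replicate block changed no other call of the 10 genes. The centring and the leave-one-out mixture departures were chosen after seeing the data.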
